A study of Mus musculus with 2 samples.

Results

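Mitotic cells were taken from single-cell RNA libraries of mouse leukemia progenitors as the cells richest in the transcripts of 6 genes of cell division. For each cell, the unique molecular identifiers (UMIs, each marking 1 captured RNA molecule) of Cenpf, Kif11, Nusap1, Prc1, Kif23 and Cep55 were summed and divided by the cell's total, and the top 10% of each library were taken. The members were thus chosen by the level of these 6 genes. This gave 391 of 3914 kept cells in the vehicle library and 375 of 3756 in the AG120 library, or 766 of 7670 in all. The choice rests on measured values of these same cells, so all differences between mitotic cells and the rest of their library are given as descriptions with no test. The share of 10% is set by the rule and says nothing of how many cells were dividing.

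The cells carry the label I1DN, were sorted from mice as cKit+ and Cd11b-, and are named LSCs in the sample titles. The genotype behind I1DN is not spelled out in the labels, and the series title names mutant IDH1 in acute myeloid leukemia. Mice received vehicle or AG120 (AG-120, ivosidenib), an inhibitor of mutant IDH1, for 5 days, and both groups share the I1DN background and the sort. There was 1 library for each treatment, so differences between them are differences between 2 libraries, and neither the number of mice behind a library nor their age is given in the labels. All intervals below are 95% intervals for counting error only, and no value has a replicate behind it.

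A dividing cell copies its DNA in S phase, passes through G2 and then separates its chromosomes in mitosis. Cyclin B with the kinase Cdk1 starts mitosis, the spindle moves the chromosomes, the anaphase promoting complex with Cdc20 and Ube2c ends it by marking cyclins and securin for destruction, and cytokinesis divides the cell. Many of the transcripts that serve these steps build up in G2 and mitosis, so RNA alone does not separate the last part of G2 from mitosis, and DNA content was not measured here. Of the gating genes, Cenpf belongs to the outer kinetochore, Kif11 and Kif23 are spindle motors, Nusap1 and Prc1 bind and bundle microtubules, and Cep55 acts in the final cut between daughter cells.

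The gate meant different levels in the 2 libraries. In the vehicle library the 3 lowest scores inside the gate were 1134, 1136 and 1136 gating UMIs per 1000000 UMIs of the cell, and the 3 highest outside were 1127, 1122 and 1120. In the AG120 library the 3 lowest inside were 612, 613 and 614 and the 3 highest outside were 611, 610.3 and 609.9. The median score of mitotic cells was 1755 in vehicle and 794 in AG120, and that of the rest was 0 and 109. No gating UMI was seen in 55.5% of kept vehicle cells and in 21.9% of kept AG120 cells. The vehicle library thus held a sharper contrast between its top cells and its other cells, and gating transcripts were spread over more cells in the AG120 library. At the vehicle cut, 57 AG120 cells remained, and at the AG120 cut 632 vehicle cells would have entered.

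**Figure D1:**
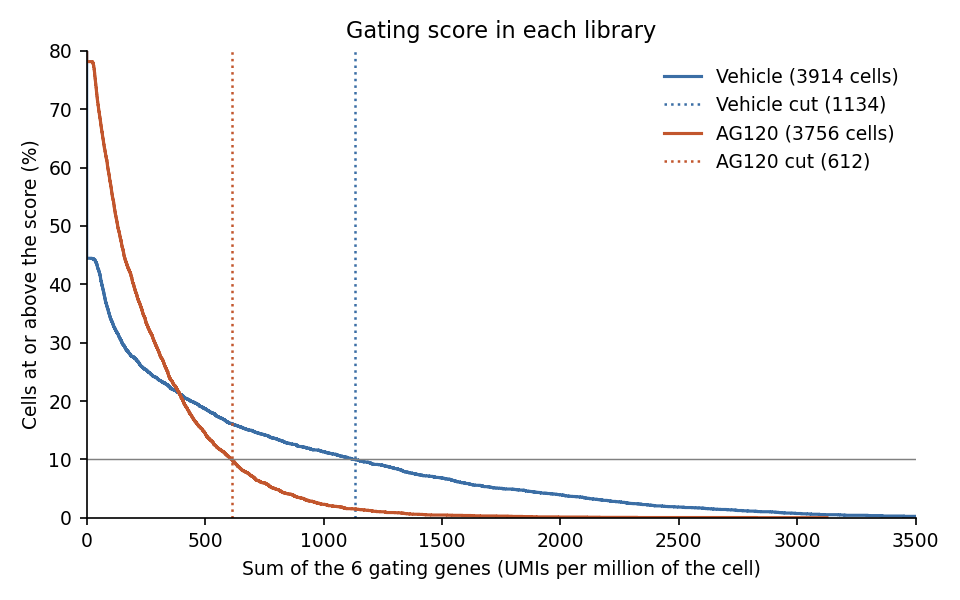
Share of kept cells (y axis, percent) at or above each gating score (x axis, gating UMIs per 1000000 UMIs of the cell, not drawn to its end) in the vehicle and AG120 libraries, with dotted lines at the lowest score inside each gate. Fewer vehicle cells than AG120 cells hold any gating UMI, with depth not matched. The vehicle curve yet reaches further right, and its cut of 1134 lies above that of 612 in AG120.

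Members of the gate differed among themselves in how many gating genes they showed. In vehicle, 356 of 391 mitotic cells held 5 or 6 of the 6 genes and none held fewer than 3. In AG120, 297 of 375 held 5 or 6, and 6 cells entered with a single gating gene, the shallowest of the gate having 790 UMIs. When the gate was drawn instead from Ccnb1, Cdc20, Plk1, Aurka, Ube2c and Hmmr, 314 of the 391 vehicle cells (80.3%) and 238 of the 375 AG120 cells (63.5%) were chosen again. Mitotic vehicle cells held a median of 16720 UMIs against 12825 in the rest, while mitotic AG120 cells held 25375 against 25739. Cells with more than 2 times the library's median UMIs were 9.46% of mitotic and 5.42% of other vehicle cells, and 0.533% and 0.739% in AG120. Doublets were not called, and their part in these results was not tested. The 2 libraries shared 17 barcodes among kept cells and none among mitotic cells.

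Levels below are UMIs of a gene summed over all cells of a group, per 1000000 UMIs of that group (CPM), and a gene is called higher or lower where its log2 ratio is at least 0.32 from 0. In vehicle, 1845 of 7996 measured genes (23.1%) were higher in mitotic cells and 1197 (15%) were lower. In AG120, 1586 of 8361 (19%) were higher and 561 (6.71%) were lower. Because the gate was cut in these same cells, these shares are a background for the lists that follow and not a result. The median log2 ratio over all measured genes was 0.07 in vehicle and 0.06 in AG120.

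Genes of mitotic entry that were not used for the gate stood far above the rest of the library. Of 15 such genes, 12 of 13 measured were higher in mitotic vehicle cells (median log2 ratio 2.46) and 13 of 15 in AG120 (median 1.18). Ccnb1, cyclin B1 itself, was at 273 CPM in mitotic vehicle cells against 24.9 in the rest, a 10.97-fold ratio (interval 10.2 to 11.8). In AG120 it was at 218 against 77.2 CPM, 2.82-fold (2.69 to 2.97). Plk1, a kinase that drives entry and spindle assembly, was 10.9-fold higher in vehicle and 3.36-fold in AG120, and the spindle pole kinase Aurka was 10.4-fold and 3.24-fold higher. Cdc25b, the phosphatase that switches on Cdk1, was at 109 against 6.99 CPM in vehicle and 49.0 against 7.09 in AG120, so its low level outside the gate was alike in both libraries. Pkmyt1, which restrains Cdk1, went the other way in vehicle at 25.4 against 37.2 CPM (log2 -0.55), and in AG120 it was at 29.4 against 31.3. Its vehicle value turned to log2 0.30 with the top 20% of cells gated and to 0.44 against cells without a gating UMI. Wee1, the other kinase that restrains Cdk1, was at 53.1 against 38.5 CPM in vehicle and at 30.8 against 24.8 in AG120, where it was not called.

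The machinery that carries the chromosomes followed the same pattern. All 17 kinetochore and checkpoint genes were higher in mitotic vehicle cells (median 2.28) and 16 of 17 in AG120 (median 0.99), Zwint being the one not called. Cenpe, the motor that brings chromosomes to the metaphase plate, was 9.12-fold higher in vehicle (8.55 to 9.73) and 3.28-fold in AG120 (3.08 to 3.49). Of the spindle genes, 21 of 21 measured were higher in vehicle (median 2.50) and 20 of 21 in AG120 (median 1.21). Hmmr, which organises microtubules at the spindle poles, was 11.9-fold and 3.23-fold higher, and the tubulin gene Tubb4b was 3.97-fold and 1.67-fold higher. Stmn1, which destabilises microtubules, differed least among them at 599.5 against 447 CPM in vehicle and 382 against 338 in AG120.

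All 17 genes of chromosome condensation and the passenger complex were higher in vehicle (median 1.95), and 14 of 17 in AG120 (median 0.91). Top2a, the topoisomerase that untangles sister DNA, was at 1113 against 247 CPM in vehicle and at 520.5 against 226 in AG120. Mki67, which coats mitotic chromosomes, was at 816 against 138 CPM in vehicle and at 464 against 199 in AG120. Hmgb2, a chromatin protein, reached 3984 against 1199 CPM in vehicle and 2239 against 1477 in AG120. With each library's own cut, which was higher in vehicle, the library difference of each was larger in mitotic cells than in the rest. In mitotic cells all were lower in AG120, while in the rest Mki67 and Hmgb2 were higher in AG120. With the vehicle cut in both libraries, log2 ratios of AG120 over vehicle in mitotic cells were -0.74 for Top2a, -0.43 for Mki67 and -0.52 for Hmgb2.

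For the anaphase promoting complex and exit from mitosis, 11 of 11 genes were higher in vehicle (median 1.99) and 10 of 11 in AG120 (median 0.72). Ube2c, the ubiquitin-conjugating enzyme of that complex (chr2:164769898-164778822 in GRCm38), was at 1303 against 70.1 CPM in vehicle, 18.6-fold (17.9 to 19.4), and at 1146 against 267 in AG120, 4.29-fold (4.19 to 4.39). The mitotic levels of Ube2c were thus near each other, and the levels outside the gate differed. Cdc20, the activator of the complex, was 9.69-fold and 2.46-fold higher. Pttg1, securin, was 1.70-fold higher in vehicle and at 1.13-fold in AG120, where it was the one not called. Pimreg, a regulator of the metaphase to anaphase step, was at 147 against 11.1 CPM in vehicle and 46.7 against 5.44 in AG120, where it had the highest ratio of all genes that the ranking covered (log2 3.1). Cytokinesis genes were higher in 12 of 12 measured in vehicle (median 2.28) and in 13 of 13 in AG120 (median 1.15), among them Ect2 (5.12-fold and 2.66-fold) and Racgap1 (5.96-fold and 2.45-fold), which place the contractile ring.

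Over the genes that the ranking covered, the highest ratio in vehicle belonged to Pif1, a DNA helicase, at 57.1 against 2.57 CPM (log2 4.48), followed by Ube2c, Cdc25b, the spindle pole gene Aspm (log2 3.92) and Prr11 (3.85). Prr11 (log2 2.53) and Pif1 (2.09) were also among the 12 highest in AG120. Over the 7604 genes measured in both libraries, 749 were higher in mitotic cells of both. These made up 42.3% of those higher in vehicle and 52.0% of those higher in AG120. Lower in both were 274 genes, 26.3% of those lower in vehicle and 65.6% of those lower in AG120. Lower in vehicle and higher in AG120 were 109 genes, 10.5% of those lower in vehicle, and 11 genes went the reverse way. Of all genes measured in each library, 23.1% were higher in vehicle and 19% in AG120, and 15% and 6.71% were lower.

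Detection within the mitotic cells differed from gene to gene. After thinning each cell to 6500 UMIs, which left out 16 and 12 shallower mitotic cells and 345 and 119 others, Ube2c was detected in 96.5% of mitotic vehicle cells against 14.3% of the rest, and in 98.1% against 49.9% in AG120. Before thinning these shares were 96.9% against 20.8% and 98.7% against 71.9%. As a guide to free RNA, cells in which 6 neutrophil genes made up 1% or more of UMIs were taken (23 vehicle and 20 AG120 cells after thinning, with median depths of 18601 and 15863.5 UMIs before it). Ube2c was detected in 52.2% and 75% of these, so for Ube2c they are no guide to background. Thinned mitotic vehicle cells held a median of 8 Ube2c UMIs (10th to 90th percentile 2 to 16), 7 of Top2a (3 to 13) and 26 of Hmgb2 (16 to 38). Thinned mitotic AG120 cells held a median of 7 Ube2c UMIs (2 to 12), 3 of Top2a (1 to 7) and 15 of Hmgb2 (9 to 22). Ccnb1 had no UMI in 23.2% of thinned mitotic vehicle cells and in 28.7% of AG120 cells. Plk1 had none in 27.2% and 37.5%, Cdc20 in 20.3% and 31.4% and Aurka in 44.5% and 56.7%.

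The promoters of 4 of these genes and of 1 gene that was lower in mitotic cells are shown because their letters differ in 3 short motifs known from cell cycle promoters. These are TTTGAA or TTCGAA, the core of the cell cycle genes homology region (CHR), CCAAT, the box bound by NF-Y, and TTTCCCGC or TTTGGCGC, forms of the E2F site. Each sequence is the RefSeq promoter of GRCm38.p6 from 250 bases before to 50 bases after the start, read 5′ to 3′ on the gene's strand, and capitals mark a motif on either strand. Ccnb1 lies at chr13:100786437-100786736 (minus strand), Plk1 at chr7:122159185-122159484, Cdc25b at chr2:131186698-131186997, Ube2c at chr2:164769679-164769978 and Cdt1 at chr8:122567765-122568064 (all plus strand).
Ccnb1: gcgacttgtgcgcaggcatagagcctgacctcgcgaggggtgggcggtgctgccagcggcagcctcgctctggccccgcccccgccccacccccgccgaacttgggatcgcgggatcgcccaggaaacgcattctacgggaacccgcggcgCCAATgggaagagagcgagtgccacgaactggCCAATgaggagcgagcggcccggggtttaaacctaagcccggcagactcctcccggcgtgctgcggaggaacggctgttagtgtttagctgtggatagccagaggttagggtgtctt
Plk1: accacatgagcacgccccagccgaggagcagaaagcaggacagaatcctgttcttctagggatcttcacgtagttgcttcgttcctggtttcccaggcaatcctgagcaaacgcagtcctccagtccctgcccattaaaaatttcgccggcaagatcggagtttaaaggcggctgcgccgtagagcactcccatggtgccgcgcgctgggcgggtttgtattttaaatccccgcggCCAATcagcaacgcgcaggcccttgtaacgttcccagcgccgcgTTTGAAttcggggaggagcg
Cdc25b: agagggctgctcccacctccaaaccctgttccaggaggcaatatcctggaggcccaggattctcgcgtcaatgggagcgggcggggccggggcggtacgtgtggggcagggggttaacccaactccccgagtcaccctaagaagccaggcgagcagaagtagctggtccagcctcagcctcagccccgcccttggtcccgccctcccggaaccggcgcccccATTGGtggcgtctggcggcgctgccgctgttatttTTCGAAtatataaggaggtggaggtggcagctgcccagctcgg
Ube2c: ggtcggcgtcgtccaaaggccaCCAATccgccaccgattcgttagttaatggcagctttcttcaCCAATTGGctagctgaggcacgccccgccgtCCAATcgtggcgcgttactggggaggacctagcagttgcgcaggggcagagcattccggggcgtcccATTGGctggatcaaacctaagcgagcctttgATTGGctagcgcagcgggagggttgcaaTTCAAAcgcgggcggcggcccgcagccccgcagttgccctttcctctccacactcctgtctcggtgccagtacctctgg
Cdt1: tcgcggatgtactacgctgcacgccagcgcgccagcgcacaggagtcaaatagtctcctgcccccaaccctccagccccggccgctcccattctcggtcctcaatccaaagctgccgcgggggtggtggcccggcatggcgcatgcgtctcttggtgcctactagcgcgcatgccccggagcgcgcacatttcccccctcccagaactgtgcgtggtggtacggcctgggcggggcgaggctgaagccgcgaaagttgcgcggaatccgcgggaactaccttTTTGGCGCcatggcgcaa
The Plk1 and Cdc25b windows held 1 CHR-type and 1 CCAAT match each, Ube2c held 1 and 6, and Ccnb1 held 2 CCAAT matches and no CHR-type one. Cdt1, which licenses replication origins and was lower in mitotic cells, held 1 E2F-type match and neither of the others. The promoter of Ung, the S phase gene with the lowest ratio, held none of the 3. Where adjoining letters form 2 matches, as in 1 stretch of Ube2c, they are counted separately.

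The same letters were counted over many promoters. Of 84 genes at 2-fold or more higher in mitotic cells of both libraries, gating genes left out, 66 had an entry, with 72 promoters. A CHR-type match was in 65.3% of these promoters, against 14.5% of 7688 promoters of genes measured in both libraries and 19.2% of all 32851 promoters in the table. A CCAAT match was in 73.6% of them, 37.9% of the measured and 37.4% of all, and both kinds together in 56.9%, 6.05% and 7.52%. Of the promoters of the 274 genes lower in both, 13.6% held a CHR-type match and 36.4% a CCAAT match. The E2F-type letters were in 13.6% of promoters of genes lower in both, 4.17% of those of genes 2-fold higher, 3.52% of the measured and 1.56% of all. Of the 34 promoters of the S phase list, 29.4% held E2F-type letters, 17.6% a CHR-type match and 67.6% a CCAAT match, the last near the 69.2% of the mitotic lists. A match is a description of the letters only, and whether a factor bound there was not measured.

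Histone genes were higher as well, in AG120 by an amount that depended on the cells compared. Of 46 measured in vehicle, 45 were higher (median log2 1.63), and of 42 measured in AG120, 34 were higher and 1 lower (median 0.61). Their summed level was 5790 against 1808 CPM in vehicle and 2034 against 1494 in AG120. With the gate drawn from other mitotic genes, the histone median was 1.37 in vehicle. In AG120 it was then 0.27, short of the level at which a gene is called. Against cells without a gating UMI the histone medians were 2.42 in vehicle and 1.76 in AG120. These genes are near-identical copies, so reads may have been split or assigned among them differently, and single members are not named.

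S phase genes were lower in mitotic cells. Of 43 measured, 30 were lower and 4 higher in vehicle (median log2 -0.87), and 32 were lower and 1 higher in AG120 (median -0.75). Ung, the uracil-DNA glycosylase of replication forks (chr5:114130386-114139323), stood apart from the rest of the list in both libraries. It was at 2.23 against 84.3 CPM in vehicle (15 against 4175 UMIs, log2 -5.24) and at 2.95 against 81.4 CPM in AG120 (28 against 7047 UMIs, log2 -4.79). In thinned cells Ung was detected in 0.267% of mitotic against 30.3% of other vehicle cells, and in 0.826% against 36.7% of AG120 cells. The unthinned shares were 1.79% against 40.2% and 6.4% against 63.1%. Of the neutrophil-gene cells, 4.35% and 20% held an Ung UMI.

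Other replication genes were lower by less. Hells, a chromatin remodeler, was at 26.3 against 137 CPM in vehicle and 24.3 against 74.3 in AG120. Mcm6, a subunit of the replicative helicase, was at 119 against 381 CPM in vehicle and 185 against 317 in AG120, and the sliding clamp Pcna was at 67.0 against 179 and at 120 against 215. Rrm1, the large subunit of ribonucleotide reductase, was not called in either library (log2 0.28 and -0.05), nor was Tyms (-0.20 and -0.00). Against cells without a gating UMI, Rrm1 was at 1.14 and 0.47 and Tyms at 0.90 and 0.79, and the S phase medians were -0.32 and -0.64.

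Genes that prepare the next round of replication were low too. Of 13 G1 cyclins and kinases, 10 were lower and none higher in mitotic vehicle cells (median -0.63), and of 12 measured in AG120, 7 were lower and 1 higher (median -0.41). Cdt1 was at 9.96 against 67.4 CPM in vehicle and at 34.3 against 109.9 in AG120. The transcription factor gene E2f1 was at 5.05 against 39.9 CPM in vehicle and 7.90 against 23.5 in AG120. Cyclin E genes were lower in both libraries, Ccne1 by log2 -1.99 and -1.66 and Ccne2 by -1.97 and -1.87. With the top 20% gated, Ccne1 in vehicle was at 0.14, and against cells without a gating UMI at -0.08. Cdk6 was the one higher in AG120 (log2 0.40, and 0.29 in vehicle, where it was not called).

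**Figure D2:**
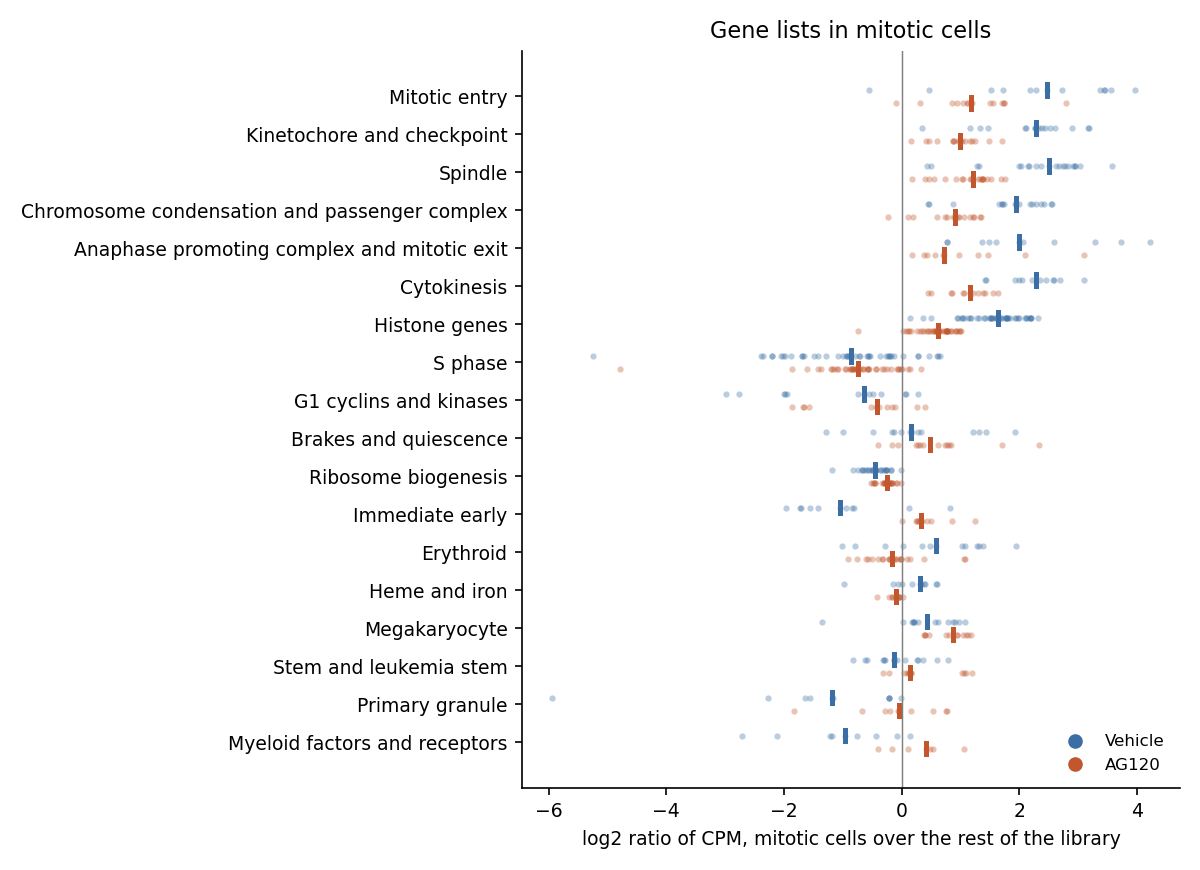
Log2 ratio of CPM in mitotic cells over the rest of the same library (x axis) for each measured gene (points) of 18 lists (rows), with the list median as an upright bar, for the vehicle and AG120 libraries. The 6 mitotic lists and the histone genes lie to the right in both libraries and further right in vehicle, S phase genes lie left in both, and the immediate early and myeloid factor lists have medians on opposite sides. With a gate from 6 other mitotic genes, the AG120 medians were 0.06 for immediate early and -0.08 for myeloid factor genes.

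Brakes of the cell cycle went in both directions. Of 14 brake and quiescence genes, 5 were higher and 3 lower in vehicle (median 0.16), and 8 were higher and 1 lower in AG120 (median 0.49). The medians in vehicle and AG120 were 0.003 and 0.21 with a gate from 6 other mitotic genes. Against cells without a gating UMI they were 0.03 and 0.17. Cdkn2d, which encodes the inhibitor p19 of the G1 kinases, was at 292 against 77.1 CPM in vehicle, 3.79-fold (3.59 to 4.0), and at 90.03 against 27.7 in AG120, 3.25-fold (3.01 to 3.52). Ccng2, an unusual cyclin linked to arrest, was 2.69-fold higher in vehicle (119 against 44.3 CPM) and 5.05-fold higher in AG120 (27.6 against 5.46, log2 2.34). With the gate from 6 other mitotic genes Ccng2 was at log2 1.33 in vehicle and 1.48 in AG120. Cdkn2c and Cdkn1b, the genes of p18 and p27, were 2.48-fold and 2.31-fold higher in vehicle and 1.70-fold and 1.79-fold higher in AG120. Cdkn1a, the gene of p21, was lower in both, at 17.4 against 42.2 CPM in vehicle and 8.63 against 11.4 in AG120. In thinned cells Cdkn2d was detected in 80.3% of mitotic against 36.2% of other vehicle cells and in 41.0% against 16.4% of AG120 cells. Unthinned, these shares were 93.6% against 55.4% and 81.6% against 43.9%. Of the neutrophil-gene cells, 60.9% and 35% held a Cdkn2d UMI.

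Ribosome biogenesis genes had medians below 0 in both libraries. Of 25 genes of ribosome biogenesis, 17 were lower in vehicle (median -0.45) and 6 in AG120 (median -0.25), and none was higher in either, the other 8 and 19 not being called. The medians in vehicle and AG120 were -0.41 and -0.16 with a gate from 6 other mitotic genes. Against cells without a gating UMI they were -0.225 and -0.04. Srm, spermidine synthase, was at 111 against 253 CPM in vehicle and 559.6 against 691 in AG120, where it was not called. Myc was at 71.2 against 177 CPM in vehicle (log2 -1.31) and at 308 against 348 in AG120 (log2 -0.17, not called). Mxd3, a partner of Max that is known from dividing cells, was at 38.1 against 5.33 CPM in vehicle (log2 2.84) and was under the minimum for measurement in AG120. Among glycolysis genes, 7 of 13 were lower and 2 higher in vehicle (median -0.38), and 1 was lower in AG120 (median -0.11). Of 16 genes of the TCA cycle and 2-oxoglutarate, 1 was lower in vehicle, Idh2 (185 against 302 CPM), and 1 was higher in AG120, Idh1, whose mutant form AG120 targets (48.9 against 32.8 CPM). The Idh1 call was lost with a gate from 6 other mitotic genes (log2 0.07) and against cells without a gating UMI (0.10). The labels do not say whether the counts of Idh1 hold mutant transcripts. Of 5 measured genes of DNA methylation and its removal, 1 was called, higher in vehicle.

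The lineage genes that mitotic cells held differed between the libraries, first among erythroid genes. In vehicle, 9 of 13 measured erythroid genes were higher in mitotic cells and 2 were lower (median 0.58). In AG120, 3 of 23 were higher and 7 lower (median -0.16). Gata1, the master factor of red cell and megakaryocyte development (chrX:7959260-7978071), was at 121 against 48.4 CPM in vehicle, 2.50-fold (2.30 to 2.70), and at 192 against 193 in AG120. Klf1, the erythroid Krüppel-like factor (chr8:84901928-84905291), was at 35.5 against 13.6 CPM in vehicle, 2.61-fold (2.25 to 3.03), and at 187 against 197 in AG120. Zfpm1, the cofactor of Gata1, was 2.44-fold higher in vehicle and level in AG120 (0.997-fold). The erythropoietin receptor gene Epor and the Rh-associated glycoprotein gene Rhag were higher in vehicle (log2 1.03 and 1.07) and not called in AG120 (-0.22 and -0.16). Heme and iron genes were higher in 5 of 11 and lower in 1 in vehicle (median 0.31), and lower in 1 of 11 in AG120 (median -0.10). Their AG120 median was 0.07 with the other gate and 0.11 against cells without a gating UMI.

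Other members of the erythroid list differed in direction. Ermap, a red cell surface protein, had no UMI in the 391 mitotic vehicle cells, which allows up to 0.446 CPM, and Rhd had 2. In AG120 mitotic cells Ermap was at 149.9 against 172 CPM, and Rhd at 76.1 against 128 CPM was lower than in the rest (log2 -0.75). Car2, carbonic anhydrase 2, was at 215 against 211 CPM in vehicle and at 440.3 against 670 in AG120 (log2 -0.60). Neither call in AG120 held with a gate from 6 other mitotic genes, where Rhd was at -0.14 and Car2 at -0.12, or against cells without a gating UMI, where they were at -0.16 and -0.25. Blvrb, biliverdin reductase B, was at 56.8 against 44.9 CPM in vehicle and at 671 against 841 in AG120, where the other gate gave log2 -0.03. Hbb-bs, an adult beta globin gene, was higher in both (log2 1.94 and 1.05), but 1 cell carried 52.2% of its 988 UMIs in mitotic vehicle cells, and without the top cell of each group the vehicle value was 1.27. With no filter on cells, the AG120 value was -0.69. Reads of Hbb-bs and Hbb-bt, near-identical copies, may be split unequally.

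In thinned cells, Gata1 was detected in 43.7% of mitotic vehicle cells (38.6 to 48.9) against 19.1% of the rest (17.7 to 20.5). In AG120 the shares were 69.4% and 66.7%, with intervals that overlapped. Klf1 was detected in 14.4% against 4.28% in vehicle and in 63.6% against 64.6% in AG120. Unthinned shares of Gata1 were 61.9% against 25.4% in vehicle and 90.9% against 89.7% in AG120, and those of Klf1 were 27.1% against 6.70% and 84.0% against 86.0%. Of the neutrophil-gene cells, none held a Klf1 UMI, which allows up to 13.04% and 15%, and Gata1 was in 0 of 23 and in 5%. Cells with 3 or more UMIs of Klf1, Ermap and Rhd together made up 7.93% of mitotic vehicle cells (5.45 to 11.1) against 1.70% of the rest, and 76.3% of mitotic AG120 cells (71.6 to 80.5) against 81.9%. With thinned cells these shares were 2.4% against 0.598% and 43.3% against 52.7%. In mitotic vehicle cells this rule rested almost wholly on Klf1, given the counts of Ermap and Rhd above.

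**Figure D3:**
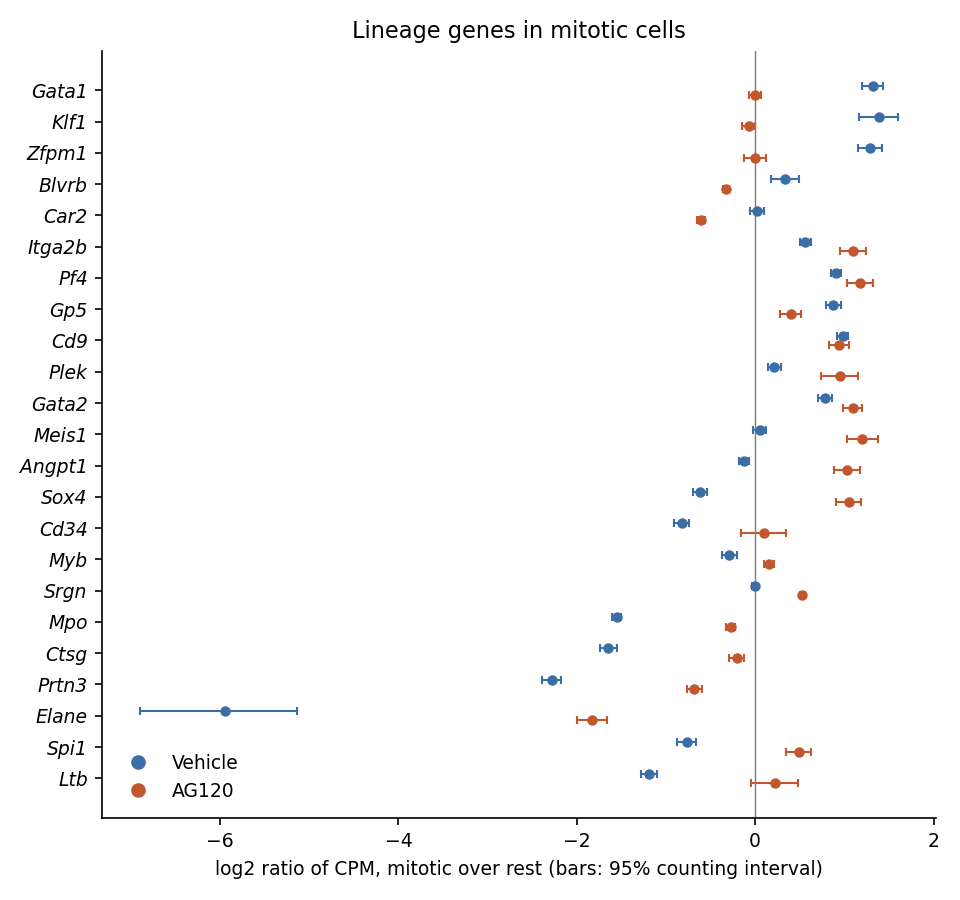
Log2 ratio of CPM in mitotic cells over the rest of the library (x axis) for 23 lineage genes (rows) in the vehicle and AG120 libraries, with 95% counting intervals as bars. Gata1, Klf1 and Zfpm1 lie right of 0 in vehicle and at 0 in AG120, the 5 megakaryocyte genes from Itga2b to Plek lie right of 0 in both, though Pf4 in AG120 was at -0.24 with another gate. Mpo, Ctsg, Prtn3 and Elane lie left in vehicle, and by less in AG120.

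Megakaryocyte genes leaned to higher levels in mitotic cells of both libraries, and in AG120 this depended on the gate. Of 14 measured in vehicle, 7 were higher and 1 lower (median 0.42), and of 12 measured in AG120, 12 were higher (median 0.87). Itga2b, the platelet integrin CD41 (chr11:102453297-102470122), was at 337 against 228 CPM in vehicle and at 49.8 against 23.3 in AG120. The tetraspanin gene Cd9 was at 371 against 188 CPM in vehicle and 87.1 against 45.4 in AG120. Gp5, a chain of the platelet von Willebrand factor receptor, was 1.84-fold higher in vehicle and 1.32-fold in AG120. Pf4, platelet factor 4, was at 452 against 241 CPM in vehicle and 48.2 against 21.3 in AG120, where 1 cell carried 48.9% of its 458 UMIs. Without the top cell of each group the AG120 value of Pf4 was log2 0.53, against 1.18 with it. It was -0.24 with a gate from 6 other mitotic genes, so no direction is given for Pf4 in AG120.

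These genes were at low levels in the AG120 library, and the list median there depended on the cells compared. With the gate drawn from 6 other mitotic genes it was 0.20, and against cells without any gating UMI it was -0.00. In thinned AG120 cells the mean summed UMIs of the list were 5.16 in cells without a gating UMI, 2.55 in cells with some below the cut and 4.75 in mitotic cells. In vehicle they were 12.3, 10.6 and 16.4, and the list median with the other 6 genes was 0.31. Itga2b was detected in 83.7% of thinned mitotic vehicle cells against 69.1% of the rest, and in 23.7% against 13.4% in AG120. Unthinned, these shares were 95.4% against 85.1% and 44.8% against 29.5%. Of the neutrophil-gene cells, 13.04% in vehicle held an Itga2b UMI and 0 of 20 in AG120, which allows up to 15%.

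Gata1 and megakaryocyte transcripts were detected together in a larger share of mitotic than of other vehicle cells, as each was alone. Whether they met in the same cells more often than their separate shares give was not tested. Gata1 and Pf4 were both detected in 26.7% of thinned mitotic vehicle cells against 9.57% of the rest, and Gata1 and Itga2b in 39.2% against 15.7%. Klf1 and Itga2b were both detected in 12.5% against 3.08%. In AG120 the Gata1 and Itga2b pair was in 14.6% of mitotic cells against 7.51% of the rest. Cd34 and Mpo, genes of early myeloid progenitors, were together in 27.5% of mitotic against 58.2% of other vehicle cells.

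Stem cell genes had no shared direction. In vehicle, 3 of 15 measured were higher and 3 lower (median -0.13), and in AG120 4 of 13 were higher and 1 lower (median 0.14). Cd34, a surface marker of stem and progenitor cells (chr1:194938819-194961279), was at 180 against 319 CPM in mitotic vehicle cells (log2 -0.82) and at 15.6 against 14.6 in AG120. Gata2, a factor of stem and early megakaryocyte cells, was higher in both, at 265 against 154 CPM in vehicle and 102 against 47.7 in AG120. Meis1, a homeobox gene known from leukemia stem cells, was at 232 against 225 CPM in vehicle and at 35.2 against 15.3 in AG120, 2.30-fold (2.04 to 2.60). Angpt1 was at 431 against 470 CPM in vehicle and 51.1 against 25.0 in AG120. Sox4 was lower in vehicle, at 208 against 319 CPM, and higher in AG120, at 54.0 against 26.0. Kit, the gene of the sort, was not called in either (log2 -0.13 and 0.03), and Itgam, the gene of Cd11b, had 15 and 10 UMIs in mitotic cells.

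The higher stem genes of AG120 also depended on the gate. With the gate from 6 other mitotic genes, Meis1 was at log2 0.38, Gata2 at 0.43, Angpt1 at 0.33 and Sox4 at 0.55. All 4 were still called there. Against cells without a gating UMI, Meis1 was at 0.49 and still called, Gata2 was at 0.20, Angpt1 at 0.12 and Sox4 at -0.12. In thinned AG120 cells Sox4 was detected in 25.3% of mitotic cells against 13.2% of the rest, and Gata2 in 41.0% against 22.7%, from 44.8% against 27.4% and 67.2% against 49.2% unthinned. Cd34 was detected in 36.3% of thinned mitotic vehicle cells (31.4 to 41.4) against 67.6% of the rest (66.0 to 69.2), and in 5.23% against 5.46% in AG120. Unthinned, Cd34 was in 49.1% against 73.9% and in 8.27% against 7.72%. Of the neutrophil-gene cells, 8.70% in vehicle held a Cd34 UMI.

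Granule and myeloid genes were low in the dividing vehicle cells. Of 10 primary granule genes, 6 were lower and none higher in vehicle (median -1.18), and 2 were lower and 3 higher in AG120 (median -0.05). The AG120 median depended on the gate. The medians in vehicle and AG120 were -0.74 and -0.71 with a gate from 6 other mitotic genes. Against cells without a gating UMI they were -1.23 and -0.74, and with a gate from thinned cells -1.18 and -0.50. Without the top cell of each group the AG120 median was -0.07, and at the vehicle cut 0.21. Mpo, myeloperoxidase (chr11:87793581-87804413), was at 479 against 1405 CPM in vehicle and at 355 against 430 in AG120. Prtn3, proteinase 3, was at 106 against 514 CPM in vehicle and at 123 against 197 in AG120, and Ctsg, cathepsin G, at 139 against 436 and at 129 against 149. Elane, neutrophil elastase, had 12 UMIs in mitotic vehicle cells and 5422 in the rest (log2 -5.94), and 303 and 9800 in AG120 (log2 -1.83). With a gate from 6 other mitotic genes, Elane was at -1.27 in vehicle and -2.70 in AG120. Mpo was then at -1.33 and -1.42, Prtn3 at -1.11 and -1.59 and Ctsg at -1.05 and -1.23, each lower by more in AG120. Srgn, the granule proteoglycan, was level in vehicle and 1.44-fold higher in AG120 (log2 0.53). Of 9 myeloid factors and receptors, 7 were lower in vehicle (median -0.96), and of 7 measured in AG120, 4 were higher and 1 lower (median 0.41). Spi1, the gene of PU.1, was at 124 against 210 CPM in vehicle and 51.7 against 36.9 in AG120. With the gate from 6 other mitotic genes, the AG120 median of myeloid factors was -0.08 and Spi1 was at -0.08. Against AG120 cells without a gating UMI, Srgn was at -0.14.

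In thinned cells, Mpo was detected in 37.6% of mitotic against 69.2% of other vehicle cells, and in 12.7% against 9.87% of AG120 cells, where the intervals overlapped. Unthinned, it was in 47.3% against 73.0% and in 14.9% against 12.5%. Ltb, lymphotoxin beta, was at 161 against 367 CPM in vehicle (log2 -1.18) and at 14.5 against 12.4 in AG120. Of 5 measured genes of the lymphoid-type list, 4 were lower in vehicle (median -0.59), and of 2 in AG120 1 was higher. Type I interferon genes were higher in 2 and lower in 3 of 7 in vehicle (median -0.12), and lower in 2 of 12 in AG120 (median -0.11).

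**Figure D4:**
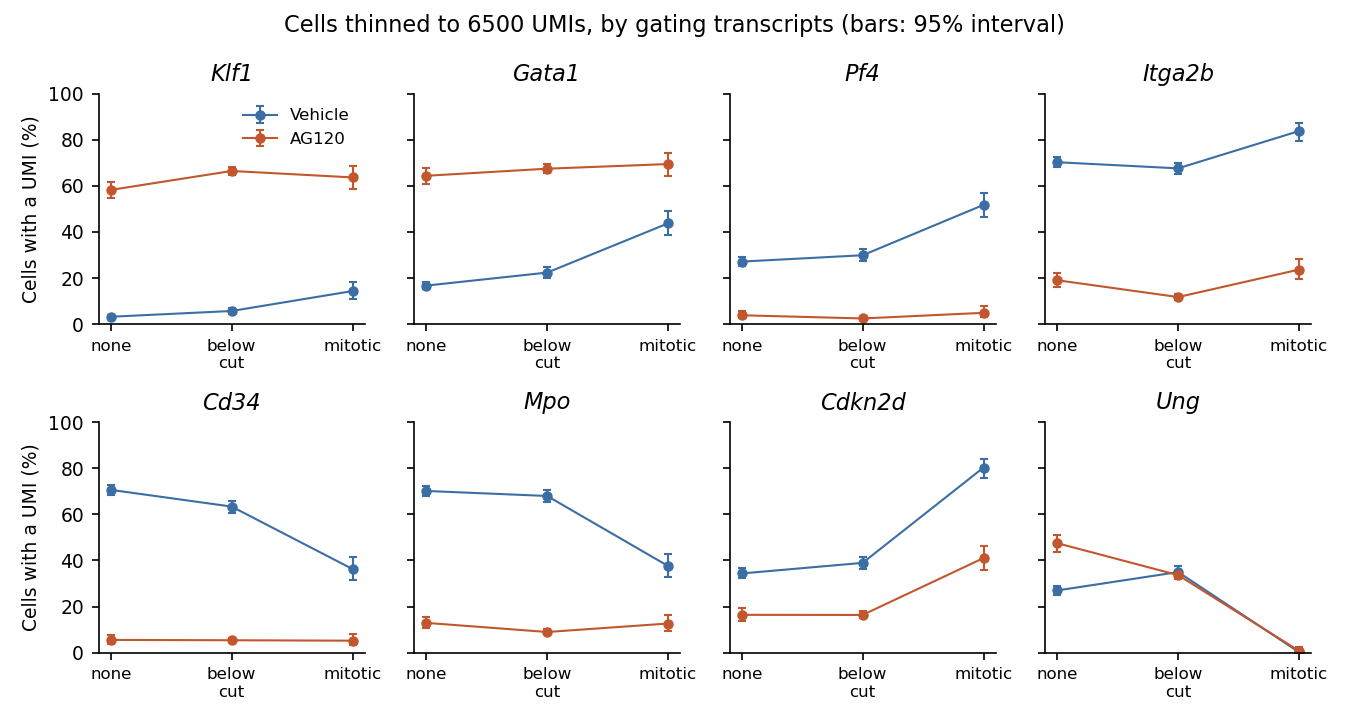
Share of cells with a UMI (y axis, percent, with 95% Clopper-Pearson intervals) for 8 genes in cells thinned to 6500 UMIs, split on the x axis into cells without a gating UMI, cells with some below the cut and mitotic cells, in the vehicle and AG120 libraries. In vehicle, Klf1, Gata1, Pf4 and Cdkn2d are highest and Cd34 and Mpo lowest in mitotic cells, and Ung is near 0 in mitotic cells of both.

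Many transcripts of mature cell types in the gates came from single cells. In AG120, 1 cell held 1430 of the 1437 Stfa1 UMIs, and 1 cell held 971 of 976 Ngp UMIs, both neutrophil genes. Cd74, the MHC class II chaperone, had 471 of its 479 UMIs in 1 cell. In vehicle, 1 cell held 931 of 933 UMIs of Camp, another neutrophil gene. Each gate held 1 cell in which the 6 neutrophil genes made up 1% or more of UMIs. Prss34, a basophil and mast cell protease, had 891 UMIs over 12 mitotic AG120 cells and 1231 over 31 others, and Ms4a2, a chain of the IgE receptor, was detected in 5.51% of thinned mitotic AG120 cells against 1.23% of the rest (7.73% against 2.78% unthinned). Retnlg had no UMI in either gate and was at least 33.8-fold lower in mitotic vehicle cells and at least 27.1-fold lower in AG120, against a floor of 3 counts over the group, and the 95% bounds of these ratios were 27.4-fold and 21.9-fold.

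Immediate early genes, which answer growth and stress signals within minutes, lay on opposite sides of the rest in the 2 libraries. In vehicle, 9 of 11 were lower in mitotic cells and 1 higher (median -1.04), and in AG120 6 were higher and none lower (median 0.33). Junb was at 73.0 against 284 CPM in vehicle and at 221 against 163 in AG120. Fos was at 11.6 against 38.5 CPM in vehicle and 30.4 against 25.2 in AG120, and Egr1 at 18.3 against 60.1 and at 48.1 against 47.8. Jun was at 254 against 446 CPM in vehicle and 361 against 255 in AG120, and Dusp1, a phosphatase of the same response, at 52.9 against 102 and at 58.7 against 32.6. Klf6 was the one that was higher in both (log2 0.82 and 1.24). Against cells without a gating UMI, Jun and Junb in AG120 were at log2 -0.04 and -0.29.

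The AG120 value again depended on which other cells were compared. In thinned AG120 cells the mean summed UMIs of the list were 8.81 without a gating UMI, 5.27 below the cut and 8.50 in mitotic cells. In vehicle they were 14.3, 6.83 and 5.44. Against cells without a gating UMI the AG120 median was -0.23, and with the gate from 6 other mitotic genes it was 0.06, while the vehicle median was -1.44 and -1.32.

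Mitotic cells of the 2 libraries were then compared with each other. Of 8536 measured genes, 2116 (24.8%) were higher in AG120 and 3364 (39.4%) were lower. The median over them was log2 -0.14. These cells differ in their gating score by the rule, as given above, and at the vehicle cut only 57 AG120 cells were left. Median UMIs per mitotic cell were 25375 in AG120 and 16720 in vehicle.

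List medians of mitotic genes were below 0 among mitotic cells and above 0 in the rest. The median log2 ratio of AG120 over vehicle was -0.45 for mitotic entry genes among mitotic cells and 0.28 among the rest. For the kinetochore list the medians were -0.88 and 0.46, for the spindle -0.89 and 0.32, for condensation -0.75 and 0.22, for exit -0.38 and 0.82 and for cytokinesis -0.87 and 0.34. Among mitotic cells none of the genes of these 6 lists was called higher in AG120, and 12 of 15, 13 of 17, 20 of 22, 14 of 17, 6 of 11 and 12 of 13 were called lower. In the rest, where 27.7% of all measured genes were higher and 36.6% lower, 7, 10, 10, 6, 8 and 7 of them were higher and 1, 0, 4, 0, 2 and 1 lower, in the same order. With the vehicle cut in both libraries the medians among mitotic cells were 0.01 for entry, -0.49 for the kinetochore, -0.36 for the spindle, -0.43 for condensation, -0.02 for exit and -0.43 for cytokinesis. The 57 AG120 cells at that cut also differed in lineage genes from the AG120 cells below it. List medians were 1.35 for megakaryocyte, 1.19 for lymphoid-type, 1.18 for myeloid factor, 0.42 for stem and 0.21 for primary granule genes. For heme and iron and for erythroid genes they were -0.35 and -0.39. A shared cut thus does not make the cells of the 2 libraries alike. Ccnb1 had a log2 ratio of -0.33 with each library's own cut and 0.21 with the vehicle cut. Histone genes were lower in 53 of 53 measured (median -1.66), against a median of -0.69 in the rest and of -1.45 among mitotic cells at the vehicle cut.

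Erythroid genes were higher in AG120 in mitotic cells and in the rest. Of 22 measured erythroid genes, 19 were higher in mitotic AG120 cells and 3 lower (median 2.09), and the median in the rest was 3.24. There were 13 genes in this ranking with no UMI in mitotic vehicle cells, led by Ermap, whose 1424 UMIs in AG120 made it at least 336-fold higher against a floor of 3 counts. Pklr, the red cell pyruvate kinase, had 460 UMIs and was at least 109-fold higher, and the spectrin-binding genes Add2 and Ank1 at least 44.6-fold and 29.8-fold. The lower 95% bounds of these 4 ratios were 273, 88.0, 35.9 and 23.8. Klf1 was at 187 CPM in AG120 and 35.5 in vehicle (log2 2.4), against 3.85 in the rest, and Gata1 was at log2 0.67 against 1.99. All 11 measured heme and iron genes were higher (median 1.24, and 1.61 in the rest).

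Megakaryocyte and stem genes went the other way. Of 15 megakaryocyte genes, 14 were lower in mitotic AG120 cells and 1 higher (median -1.71, and -2.05 in the rest). Itga2b was at log2 -2.76, Pf4 at -3.23 and Cd34 at -3.53. Of 16 stem genes, 12 were lower and 2 higher (median -1.05, and -1.44 in the rest). Mycn had 20 UMIs in AG120 and 263 in vehicle (log2 -4.21). Of 4 measured lymphoid-type genes, 4 were lower (median -3.75, and -4.75 in the rest). The MHC class II list had a median of 4.76 (3 of 4 higher) against -0.69 in the rest, with 98.3% of the Cd74 UMIs of mitotic AG120 cells in 1 cell. S100a6, a calcium-binding protein, was at 8.21 CPM against 229 (log2 -4.80).

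Ribosome biogenesis genes were higher in AG120 in mitotic cells and elsewhere alike. All 25 were higher among mitotic cells (median 1.15) and all 25 in the rest (median 0.95), where 27.7% of all measured genes were higher. Npm1, nucleophosmin, was at 3155 CPM in mitotic AG120 cells and 1394 in mitotic vehicle cells. Immediate early genes differed in sign between the compartments, with a median of 0.70 among mitotic cells (7 of 11 higher, 2 lower) and -0.79 in the rest (11 of 11 lower, where 36.6% of all measured genes were lower). Junb was at log2 1.60 among mitotic cells and -0.80 in the rest, and Jun at 0.51 and -0.80. At the vehicle cut, with the few AG120 cells described above, the median among mitotic cells was 1.00.

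**Figure D5:**
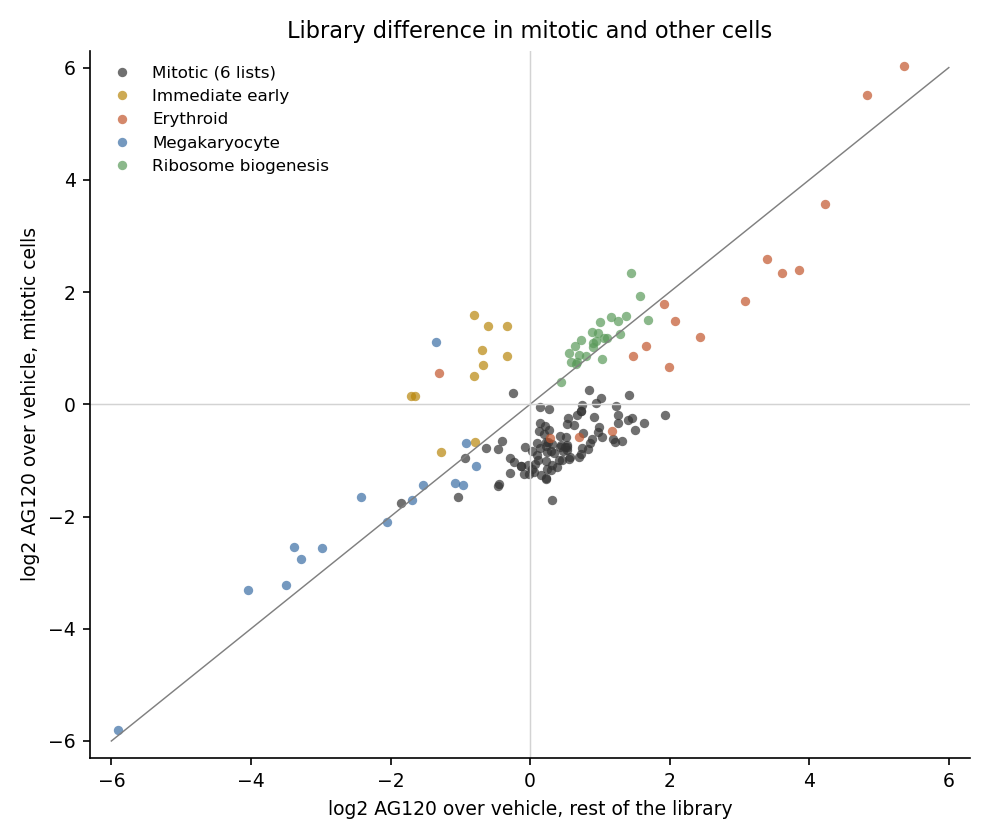
Log2 ratio of CPM in AG120 over vehicle for genes of 10 lists, in the rest of the libraries (x axis) and in mitotic cells (y axis), with the line of equal ratios. Genes with no UMI in a group are not drawn. Most mitotic genes lie below the line, immediate early genes lie above it, most erythroid genes lie right of 0 on the x axis and below the line, and megakaryocyte and ribosome biogenesis genes lie near it.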

How the data were processed

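Cells were sorted from mice and run on the 10x Genomics platform, which the design text describes as 3′ and the labels' extraction protocol as 5′. The deposited values are UMI counts per gene and cell. Cell Ranger 3.1.0, Seurat 4.0.4 and builds mm10 and GRCm38 are named in the submitters' processing notes, while version 3.0.2 of the software stands in the file headers. The matrices held 4146 vehicle and 4016 AG120 barcodes with 56821757 and 96919988 UMIs. Kept cells had 500 genes or more, with 10% of UMIs or less from mitochondrial genes, and doublets were not called. Counts were summed over the cells of a group and divided by its total. A gene was measured at 500 UMIs over a library's kept cells, or at 100 over the mitotic cells of both libraries. Ratios carry exact conditional binomial intervals and shares Clopper-Pearson intervals, at 95%, for counting error only. Shares were also computed after thinning cells to 6500 UMIs. The text names the 12 highest and 12 lowest ratios of each of 3 comparisons in part, leaving out gating, mitochondrial, ribosomal protein, sex-linked and unnamed genes, and members of 28 lists. Members and lists were chosen with earlier results of these data known. Itgam and other genes under the minimum are given as UMIs. There were 25 alternatives, some added after seeing the data. Python 3.11.15, numpy 2.4.6, scipy 1.17.1, pandas 2.3.3 and matplotlib 3.10.9 were used, and the scripts were tested on simulated data. A gene that the naming rule covers is not reported here.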

Additional observations from a re-analysis of the deposited data

Results flagged for a closer look

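Some values lay on opposite sides of the rest in the 2 libraries, each more than 0.32 from 0 on the log2 scale. There is 1 library for each treatment, so none of these differences was tested. The median log2 ratio of mitotic cells over the rest was -0.96 in vehicle and 0.41 in AG120 for myeloid factors and receptors, and -1.04 and 0.33 for immediate early genes. Single genes with such values were Btg2, an antiproliferative gene, at -0.49 and 0.81, the erythroid enzyme gene Blvrb at 0.34 and -0.33, and Sox4 at -0.62 and 1.05. The myeloid factor genes Spi1 and Cebpa were at -0.77 and 0.49 and at -0.96 and 0.54. Of the immediate early genes, Junb was at -1.96 and 0.44, Jun at -0.81 and 0.50 and Dusp1 at -0.95 and 0.85. Of these AG120 values, only that of Sox4 (0.55) was still called with a gate from 6 other mitotic genes. The list medians were then -0.08 for myeloid factors and 0.06 for immediate early genes. Spi1 was then at -0.08, Cebpa at -0.05, Btg2 at 0.14, Blvrb at -0.03, Dusp1 at 0.24, Junb at 0.06 and Jun at 0.08. Against cells without a gating UMI, none of these AG120 values was called on the side given above. The medians were then -0.39 and -0.23. Sox4 was at -0.12, Spi1 at -0.39, Cebpa at -0.27, Junb at -0.29 and Jun at -0.04. Btg2 was at 0.17, Blvrb at -0.06 and Dusp1 at 0.04.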

How the results depend on the processing

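No paired analysis was possible because there is 1 library for each treatment and no replicate. Over 25 alternatives, 6393 list medians and gene ratios were compared with the values reported, 4818 of them for values past the threshold, of which 28 turned, and 114 of 140 counts of genes stayed within 1.5 times. Turned means a change of sign, and many more values moved without one. With the top 20% gated, 182 values were counted as moved and 89 as the same. With 6 other gating genes these were 147 and 109, and against cells without a gating UMI 183 and 40. Other alternatives moved few, such as 4 against 271 with Kif23 left out of the gate. In AG120, genes lower in mitotic cells numbered 1134 with the top 5% gated, 350 with the top 20%, 351 with a gate from thinned cells, 949 with thinned cells, 1574 with no gene minimum, 339 with a minimum of 2000 UMIs, 167 at 1.5-fold and 1872 at the vehicle cut. Genes higher in mitotic AG120 cells numbered 792 with the top 20%, 989 with the thinned gate, 774 with 6 other gating genes, 4018 with no minimum, 627 with a minimum of 2000, 522 at 1.5-fold and 3098 at the vehicle cut. In vehicle, genes higher numbered 1186 with the top 20%, 3668 with no minimum, 730.0 with a minimum of 2000 and 684 at 1.5-fold, and genes lower 2782, 589 and 567 under the last 3 of these. Between libraries, genes lower in mitotic AG120 cells numbered 5415, 1706 and 2226 under the same 3, and genes higher 1280 at 1.5-fold. A gene minimum and a larger fold change how many genes can be called by construction, and for the other alternatives the cause was not tested. With the top 20% gated, Pkmyt1 in vehicle was at log2 0.30, Ccne1 in vehicle at 0.14, Spi1 in AG120 at -0.0167 and Ccnb1 between libraries at 0.0477. With the top 5%, the myeloid factor median between libraries was 0.0006. At the vehicle cut, which was chosen after seeing the data, that median was 0.27, the mitotic entry median between libraries 0.0054 and Ccnb1 between libraries 0.21. With 6 other gating genes, AG120 values were -0.0844 for Spi1, -0.0844 for the myeloid factor median, -0.0511 for Cebpa and -0.24 for Pf4. Pf4 in AG120 was also at -0.19, -0.0486 and -0.0092 with Kif11, Nusap1 or Cep55 left out of the gate and at -0.0903 with each cell weighted equally. Against cells without a gating UMI, Pkmyt1 in vehicle was at 0.44, and AG120 values were -0.39 for Spi1, -0.39 for the myeloid factor median, -0.27 for Cebpa, -0.87 for Pf4, -0.0001 for the megakaryocyte median, -0.23 for the immediate early median, -0.12 for Sox4, -0.14 for Srgn, -0.29 for Junb and -0.0445 for Jun. With no filter on cells, Hbb-bs in AG120 was at -0.69. With 1 library for each treatment, no value has an error beyond counting.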
